A study of Mus musculus with 2 samples.

Results

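Naive CD4 T cells were 961 of the 10144 cells kept from hearts of mice after myocardial infarction, 452 of 4309 in the anti-IgG library and 509 of 5835 in the anti-PD1 library. They were chosen by their own transcripts, counted as unique molecular identifiers (UMIs, each standing for 1 captured RNA molecule). A cell was taken when it held at least 1 UMI of Cd4, at least 1 of the CD3 chains Cd3d, Cd3e and Cd3g, and at least 2 of Igfbp4, Lef1 and Ccr7 together. It was left out if it held any UMI of Cd8a or Cd8b1 (cytotoxic T cells), Foxp3 (regulatory T cells), Cxcr3 or Tbx21 (type 1 helper cells), Tnfsf11, Ccr4 or Izumo1r. Levels of these genes in the selected cells are therefore set in part by the choice, and comparisons with the other CD4 cells are descriptions.

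The hearts came from wild-type (WT) mice 7 days after infarction, which is death of heart muscle from a blocked artery. The mice received anti-PD1, which binds the receptor that Pdcd1 encodes and that restrains T cells, or anti-IgG as the comparison. Each treatment is 1 library, and how many hearts were pooled in it, their age and the antibody dose are not given in the sources used here. The series text speaks of sorted T cells and the label of the samples is T cells, while the protocol names enzymatic digestion with removal of red and dead cells and mentions no sort.

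Naive CD4 T cells are helper cells that have left the thymus and have not yet met their antigen. They circulate between blood and lymph nodes, which they enter with the help of the chemokine receptor Ccr7 and leave with the sphingosine phosphate receptor S1pr1. Transcription factors such as Tcf7, Lef1, Klf2 and Satb1 keep them quiescent, IL-7 acting through Il7r keeps them alive, and after activation they lose these genes and gain Cd44, S100 proteins and effector cytokines. In a heart they can lie in the tissue or in the blood of its vessels, and these data do not tell the places apart.

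With 1 library a group there was no replicate check and no test. All intervals below are 95% intervals that cover counting error only, leaving out the spread between animals, preparations and cells. Levels are UMI counts-per-million (CPM), a gene's UMIs relative to all UMIs of the summed cells, and are compared between cell groups for 1 gene at a time, never between genes. The naive CD4 cells held 1745724 UMIs in the anti-IgG and 1928219 in the anti-PD1 library, with medians of 3509 and 3444 UMIs per cell. The libraries share 47 barcodes, which 8 anti-IgG and 2 anti-PD1 naive CD4 cells carry. Transcripts of other cells lay in some members: 40 anti-IgG cells (8.85%) and 28 anti-PD1 cells (5.50%) held 5 or more UMIs of the marker genes of B cells, macrophages, endothelium, fibroblasts, heart muscle and red cells. Macrophage markers (11 of 14 and 12 of 14 seen, S100a8 and S100a9 at 0 in both) summed to 1902 and 670 CPM, from 37 and 31 cells. B cell markers (12 of 12 seen in both) summed to 1372 and 778, from 275 and 217 cells. Endothelial markers (6 of 6) summed to 149 and 361, from 174 and 140 cells. The B cell list includes the MHC class II genes Cd74, H2-Aa, H2-Ab1 and H2-Eb1, which are not specific to B cells. Cd74 alone held 1007 of its 2396 anti-IgG and 616 of its 1500 anti-PD1 UMIs. Comparisons between libraries are therefore also given for the 412 anti-IgG and 481 anti-PD1 cells under 5 such UMIs, called cleared cells here, a choice made after the data were seen.

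The label held up against naive markers that the rule did not use. Satb1, a chromatin organiser of resting T cells, stood at 706 CPM in the anti-IgG and 763 in the anti-PD1 naive CD4 cells. In the other CD4 cells, those with a Cd4 and a CD3 UMI, none of Cd8a or Cd8b1, and not selected (1029 and 903 cells), it stood at 166 and 215. Actn1 (318 and 382 against 74.7 and 91.8), Bach2, a repressor of effector genes (231 and 271 against 63.2 and 93.3), and Txk, a T cell kinase (251 and 234 against 80.5 and 78.7), were likewise higher in the selected cells in both libraries. Of the genes the rule summed, Lef1 was seen in 94.5% and 89.6% of naive CD4 cells, Ccr7 in 80.97% and 84.3%, Igfbp4 in 62.6% and 66.0%, and all of them together in 48.5% and 51.3%. Free RNA and shared expression set a floor for such shares: among cells with B cell transcripts and no CD3 UMI (64 and 152 cells, median 3039 and 2505 UMIs), Lef1 was seen in 1.56% and 3.95%, Igfbp4 in 4.69% and 2.63%, but Ccr7, which B cells express, in 46.9% and 75%. Among macrophages without a CD3 UMI (49 and 108 cells, median 5319 and 5362 UMIs) Igfbp4 was seen in 53.1% and 49.1%, so an Igfbp4 UMI alone does not mark a T cell in these hearts.

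Around the threshold of 2 summed UMIs, the naive and activation genes differed in how sharply their levels moved. Counted over CD4 cells with none of the barred genes, the anti-IgG library had 52 cells with a sum of 0, 33 with 1, 26 with 2, 37 with 3, 193 with 4 to 9 and 196 with 10 or more, and the anti-PD1 library had 59, 41, 42, 29, 184 and 254. Klf2, the factor that switches on homing genes, went from 902 CPM at 0 and 1253 at 1 to 1410 at 2 and 2291 at 3 in the anti-IgG library. It went from 829 and 1439 to 2058 and 2103 in the anti-PD1 library. Cd44, the adhesion receptor of activated T cells, went the other way: 215 and 164 outside the threshold against 92.2 and 68.1 just inside it in anti-IgG cells, and 238 and 184 against 52.95 and 76.7 in anti-PD1 cells. The chemokine gene Ccl5, a product of effector and memory cells, stood at 949 and 920 CPM in anti-IgG cells with a sum of 2 and 3, at 9.14 in those with 4 to 9 and at 110 in those with 10 or more. In the anti-PD1 library these values were 166, 570, 193 and 128. Over all naive CD4 cells a Ccl5 UMI was seen in only 17 of 452 anti-IgG and 23 of 509 anti-PD1 cells. These levels therefore rest on few cells and do not describe most cells of a stratum.

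**Figure D1:**
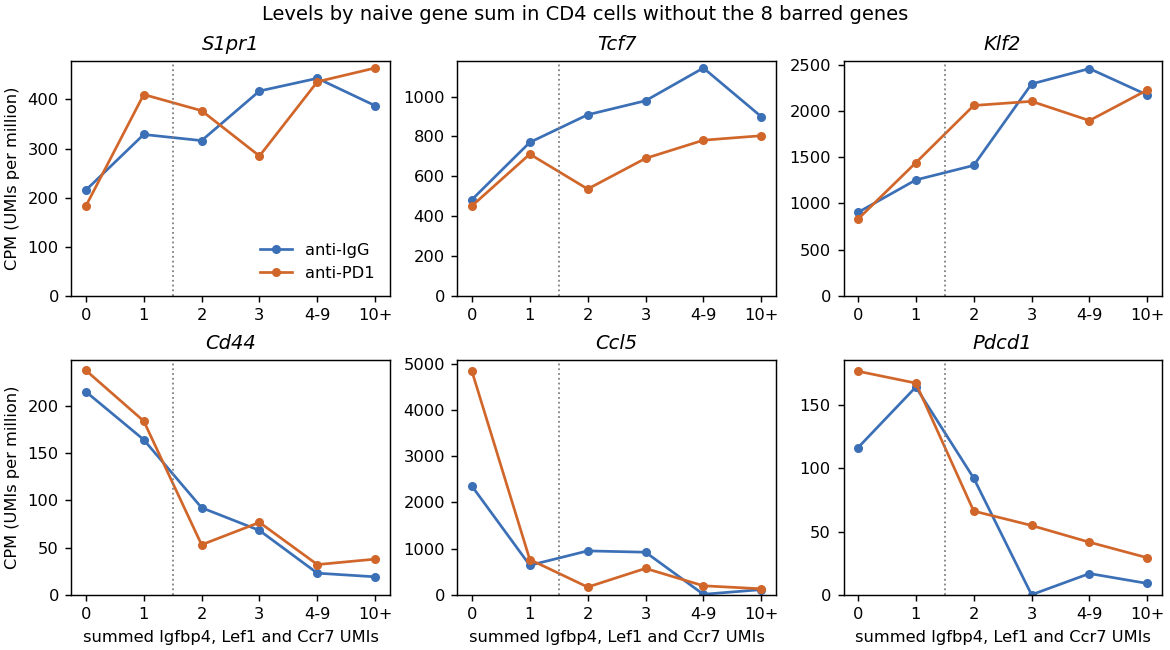
Levels of 6 genes (CPM, vertical axes) in CD4 cells without the 8 barred genes, by their summed Igfbp4, Lef1 and Ccr7 UMIs (horizontal axes), with 1 line per library; cells right of the dotted line are the naive CD4 cells. S1pr1, Tcf7 and Klf2 are higher and Cd44, Ccl5 and Pdcd1 lower right of the line than at a sum of 0.

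Among CD4 cells, naive cells were a somewhat larger share in the anti-PD1 library. Their share was 30.5% in the anti-IgG (interval 28.2 to 32.9) and 36.0% in the anti-PD1 library (33.5 to 38.6), a ratio of 1.18 (1.06 to 1.31). As a share of all kept cells the order was the other way, 10.5% (9.59 to 11.4) against 8.72% (8.01 to 9.48), since CD4 cells were 34.4% of anti-IgG and 24.2% of anti-PD1 cells. The share of CD4 cells moved with the genes the rule bars: CD4 cells with a Cxcr3 or Tbx21 UMI were 44.4% of anti-IgG and 30.2% of anti-PD1 CD4 cells. With the condition on Cxcr3 and Tbx21 dropped, naive cells were 35.2% and 38.5% (ratio 1.10, 0.995 to 1.21), and with every cell thinned to 1000 UMIs 25% and 28.7% (1.15, 0.9495 to 1.39), neither beyond counting error. Ccr7, which the rule sums, was itself higher in the anti-PD1 library, at 1.65 in naive and 2.00 in other CD4 cells. With Ccr7 left out of the sum the ratio of shares was 1.13 (1.01 to 1.27). It was 1.29 (1.15 to 1.45) without Lef1 and 1.14 (1.02 to 1.26) without Igfbp4. Any sorting gate would also bear on these shares, and its part was not tested.

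**Figure D2:**
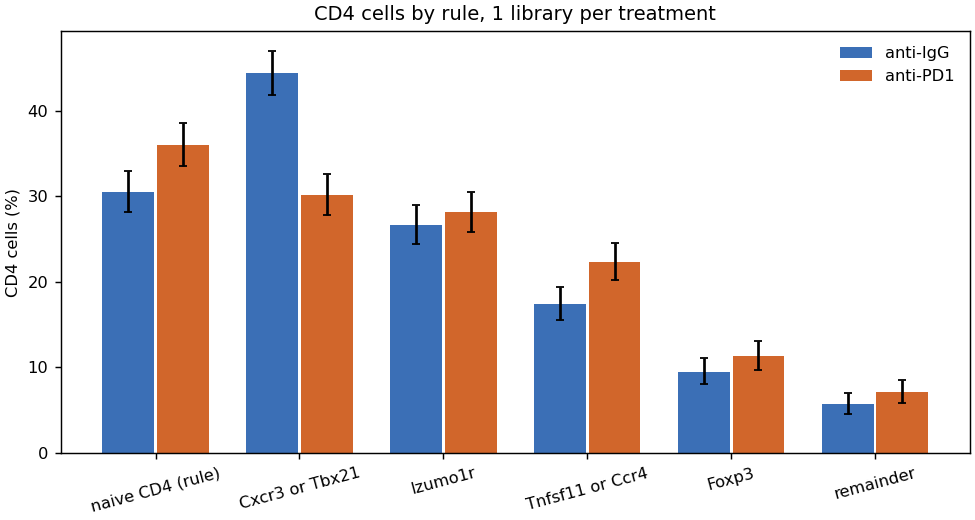
Share of CD4 cells (%, vertical axis) that were naive by the rule or held a UMI of the named genes, in the anti-IgG and anti-PD1 library; bars are single libraries, error lines are exact 95% binomial intervals, and 1 cell can count in several groups other than the first and last. Naive cells are 30.5% and 36.0%, and cells with Cxcr3 or Tbx21 44.4% and 30.2%.

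Compared with the other CD4 cells of their own library, naive CD4 cells held more of several quiescence genes and less of most effector and inhibitory genes. A gene is called higher or lower here when its ratio is past 1.5 and its interval excludes 1, in both libraries. Of 8406 genes with enough UMIs, 3.03% were higher and 15.4% lower in naive CD4 cells; the rule used the same cells, so nothing is read from these shares. Without the genes of the rule, 15 of 36 naive and quiescence regulators were higher and 2 lower, with median log2 ratios of 0.73 and 0.56 in the anti-IgG and anti-PD1 library, beside -0.24 and -0.23 over all genes. Klf2 stood at 2254 against 800 CPM in anti-IgG cells and at 2100 against 880 in anti-PD1 cells. Of 28 homing, egress and chemokine receptor genes 5 were higher and 13 lower, with medians of -0.52 and -0.75. S1pr1 stood at 407 against 181 and 440 against 202, and Tcf7 at 997 against 449 and 770 against 389. Foxp1, a quiescence factor, was also higher, at 2.21 and 1.82 times the other cells. Il7r did not reach the threshold in the anti-PD1 library, at 1.57 and 1.28 times.

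Ranked without the genes of the rule, of which Igfbp4 lay at 5.87 and 5.72 times and Ccr7 at 5.35 and 4.42 times the other CD4 cells, the largest ratios were of mixed kinds of genes. Slc28a2b, a member of a nucleoside transporter family, had 81.3 against 10.3 CPM in the anti-IgG and 55.0 against 6.23 in the anti-PD1 library, ratios of 7.88 and 8.82. Pdlim4 followed with 5.84 and 7.24, then Tubb2a, a tubulin gene, with 5.16 and 4.74, St8sia6, a sialyltransferase gene, with 4.61 and 4.52, and Atp1b1, a subunit of the sodium pump, with 6.82 and 4.39. Actn1, Slc49a4, Gm6934, Bambi-ps1, Dapl1, Myo6 and Hspbap1 completed the 12 highest, with ratios from 3.66 to 5.35. Most of these were still higher against the CD4 cells without any barred gene and with a naive sum under 2 (85 and 100 cells); Myo6 and Hspbap1 were then not called in both libraries.

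At the other end, 32 of 36 memory and activation genes and 11 of 16 checkpoint genes were lower in naive CD4 cells. So were 16 of 19 helper effector genes and 19 of 26 cell cycle genes, beside 15.4% of all genes. Of the other CD4 cells, 944 of 1029 anti-IgG and 803 of 903 anti-PD1 cells held a gene the rule bars. These counts are therefore set in part by the rule. Cd44 stood at 26.9 against 211 CPM in anti-IgG and at 38.9 against 211 in anti-PD1 cells. S100a4, a calcium-binding protein of memory cells, was at 0.105 and 0.0678 times the other cells, Itgb1, the beta-1 integrin chain, at 0.109 and 0.157, and Ifng, the type 1 helper cytokine, at 0.0190 and 0.111. The inhibitory receptor genes were low but present: Pdcd1 at 14.9 against 173 and 37.3 against 204, Ctla4 at 36.7 against 301 and 60.7 against 549, and Tigit at 7.45 against 122 and 33.2 against 196. The 12 lowest named by rank were Klrg1, Il1rl1, Ube2c, Asb2, Ccl1, Socs2, Ttc39c, Gzmb, Ccna2, Areg, Tnfrsf9 and Fgl2. Klrg1, a receptor of terminal effector cells, had 3 UMIs in anti-IgG naive CD4 cells (1.72 CPM, ratio 0.0217, 0.00447 to 0.0640) and 0 in anti-PD1 cells.

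**Figure D3:**
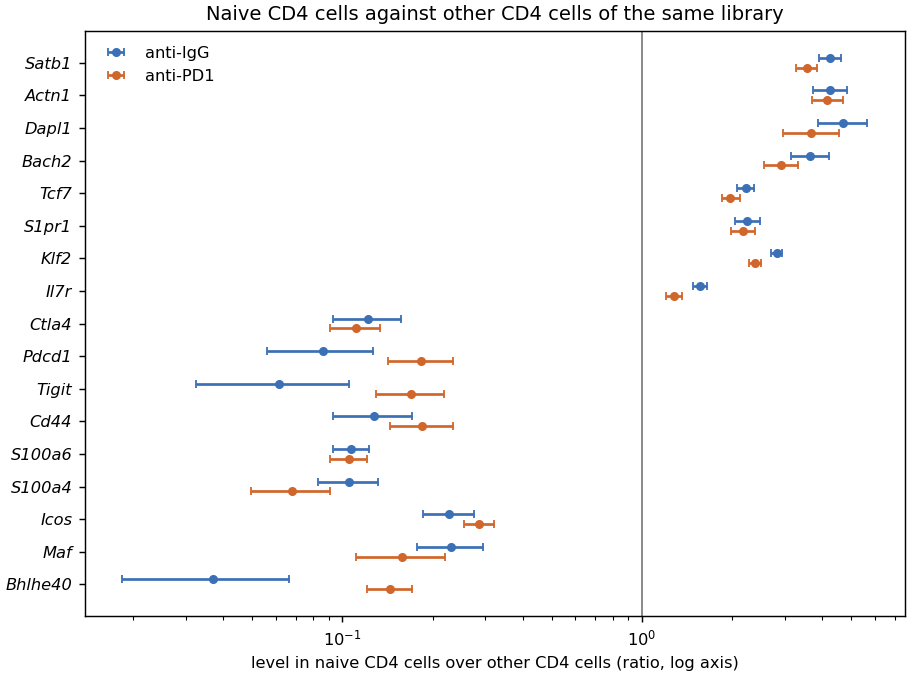
Ratio of the level in naive CD4 cells to that in the other CD4 cells of the same library (horizontal log axis) for 17 genes, with exact 95% counting intervals; blue is anti-IgG and orange anti-PD1. Satb1 lies at 4.25 and 3.55, Cd44 at 0.128 and 0.185, and the points of both libraries lie on the same side of 1 for each gene drawn.

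Against CD8 cells that held 2 or more UMIs of the same naive genes (631 and 825 cells with a CD3 UMI, a Cd8a or Cd8b1 UMI and none of Cd4, with no other gene barred), 2.39% of 7835 genes were higher and 5.32% lower in naive CD4 cells of both libraries. The highest were St8sia6 (13.4 and 12.04 times), Ly6c1, a surface protein of the Ly6 family (9.94 and 8.31), Pdlim4 (7.15 and 10.7) and Cd40lg, the helper ligand for CD40 (8.17 and 5.26). The lowest included Ly6c2 (0.0411 and 0.0416), the cytotoxic granule gene Nkg7 (0.0222 and 0.0487) and Ccl5 (0.0859 and 0.0940). Reads of Ly6c1 and Ly6c2, near copies of each other, may be split between them, which makes both uncertain. St8sia6, Pdlim4, Myo6, Slc49a4 and Tubb2a were among the 12 highest both over other CD4 cells and over the CD8 cells.

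Between the libraries, genes of the cAMP and CREB list were more often higher in anti-PD1 naive CD4 cells and type I interferon genes more often lower. The lists hold only part of the called genes. Of 6722 genes with at least 50 summed UMIs, 377 (5.61%) were higher in the anti-PD1 library and 517 (7.69%) lower, by the same threshold. The counts of each list below are to be read beside these shares. The median gene lay at a log2 ratio of -0.06, and with ratios centred on it 470 were higher and 414 lower, so the balance of the directions depends on the scaling. In the other CD4 cells 5.96% were higher and 8.15% lower. In the cleared cells 339 were higher and 440 lower, of which 290 and 356 were also called over all members. Several of the genes with the most extreme ratios rested on a few cells with transcripts of another type: 75.1% of 317 anti-PD1 UMIs of the endothelial gene Fabp4 and 81.2% of the 117 of Sparc lay in 1 cell, and the macrophage genes Lyz2, C1qa, C1qc, Tyrobp and Alox5ap, which are among the 12 lowest, were seen in 8 to 14 cells per library. Xcl1, a chemokine gene, had 2 and 102 UMIs in 1 and 5 cells, a ratio of 46.2 (12.5 to 386). Of its anti-PD1 UMIs 80.4% lay in 1 cell, so the ratio does not describe most naive CD4 cells. For several genes seen in few cells the number of cells is given below.

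**Figure D4:**
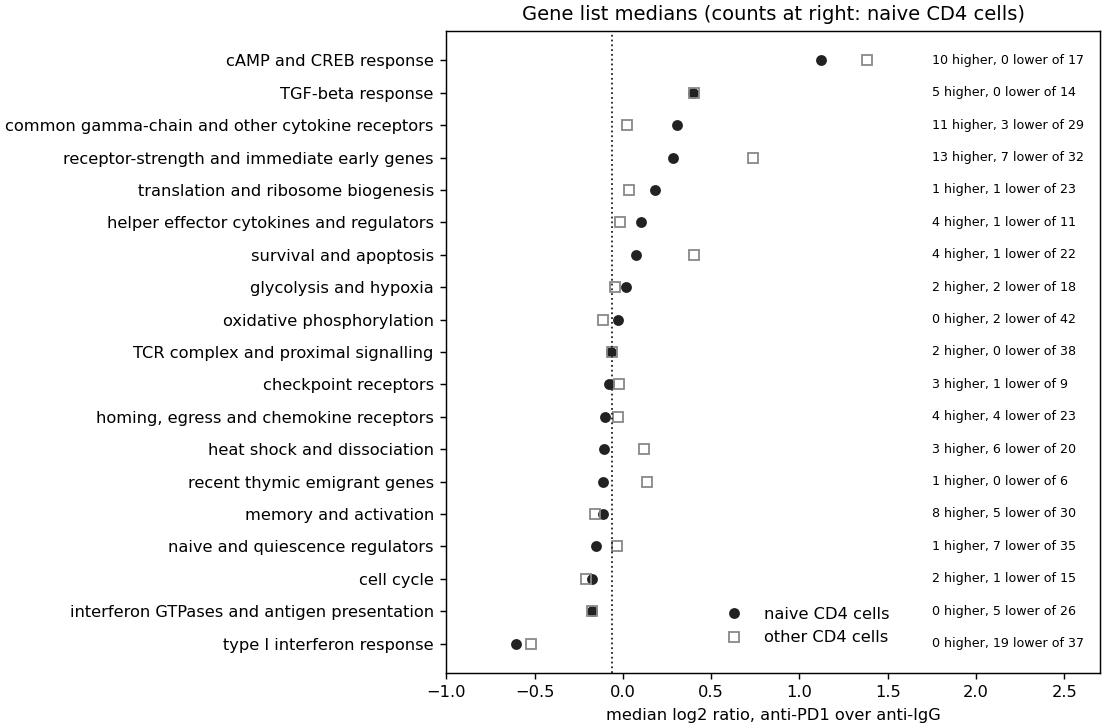
Median log2 ratio of anti-PD1 over anti-IgG (horizontal axis) for 19 gene lists in naive CD4 cells (filled circles) and other CD4 cells (open squares); the dotted line is the median of all genes in naive CD4 cells, -0.06, and the text at the right counts the genes called. The cAMP and CREB list lies highest at 1.12 and the type I interferon list lowest at -0.60.

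Most naive identity genes did not pass the threshold between the libraries, and most of those called had less in anti-PD1 cells. Of 35 naive and quiescence regulators measured, 1 was higher and 7 lower, with a median log2 ratio of -0.15. Over all genes 5.61% were higher and 7.69% lower. Txnip, a glucose uptake inhibitor of resting cells, stood at 1422 and 754 CPM (0.530, 0.496 to 0.566), and Pik3ip1, an inhibitor of PI3 kinase, at 211 and 96.5 (0.458, 0.382 to 0.547). Slamf6 stood at 181 and 95.4 (0.527), Itga4, an integrin chain, at 358 and 196 (0.546) and Il6ra, the IL-6 receptor, at 188 and 113 (0.599). The factors Tcf7 (997 and 770, ratio 0.772), Klf2 (2254 and 2100, 0.932) and the receptors S1pr1 (407 and 440, 1.08) and Il7r (1173 and 808, 0.689) did not pass the threshold. Intervals lay below 1 for Tcf7 (0.720 to 0.828), Klf2 (0.891 to 0.974) and Il7r (0.645 to 0.736), and included 1 for S1pr1 (0.976 to 1.195). Of the rule's own genes, Ccr7 stood at 769 and 1270 (1.65), Lef1 at 899 and 713 (0.793), Igfbp4 at 1115 and 1387 (1.25) and Cd4 at 441 and 413 (0.937). These last values are a description, since the same UMIs chose the cells.

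Cd44 had 47 UMIs in 35 anti-IgG cells and 75 in 44 anti-PD1 cells, a ratio of 1.45 (0.990 to 2.13). In the cleared cells it was 1.84 (1.18 to 2.94), past the threshold.

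The checkpoint receptors, the class of molecule that anti-PD1 targets, were rare transcripts in naive CD4 cells of both libraries. Of 9 checkpoint genes with enough UMIs, 3 were higher and 1 lower in the anti-PD1 library. Pdcd1 had 26 UMIs in 13 of 452 anti-IgG cells and 72 in 19 of 509 anti-PD1 cells, a ratio of 2.51 (1.58 to 4.09). The shares of cells with a Pdcd1 UMI, 2.88% (1.54 to 4.87) and 3.73% (2.26 to 5.77), overlapped, so the ratio rested on more UMIs per cell in few cells, and without the cells of highest doublet score it was 1.65 (0.960 to 2.92). Neither the 64 and 152 B cells nor the 49 and 108 macrophages held a Pdcd1 UMI. Tigit had 13 UMIs in 10 cells and 64 in 35 cells (4.46, 2.43 to 8.82; 2.88 expected with every cell brought to 1000 UMIs), and Ctla4 64 in 39 and 117 in 64 cells (1.66, 1.21 to 2.28). Btla, an inhibitory receptor of resting lymphocytes, was lower, with 155 UMIs in 120 anti-IgG and 80 in 71 anti-PD1 cells (0.467, 0.352 to 0.616). An effect on PD1 protein cannot be read from these transcripts.

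Genes of the T cell receptor and its proximal signalling were near parity: of 38 measured, 2 were higher and 0 lower, with a median log2 ratio of -0.07. This is close to the 5.61% called higher over all genes. The called genes were the ubiquitin ligase gene Cblb (442 UMIs in 254 anti-IgG and 987 in 374 anti-PD1 cells, ratio 2.02, 1.81 to 2.27) and the phosphatase gene Ptpn22 (190 in 140 and 320 in 198, 1.53, 1.27 to 1.83). Ptpn22 was not called under 4 of the alternatives.

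Of the 19 lists, genes that respond to cyclic AMP and its transcription factor CREB had the highest median log2 ratio, 1.12. Of 17 such genes 10 were higher in the anti-PD1 library and 0 lower, beside 5.61% and 7.69% over all genes. The lists were written with earlier results of these data known, and the Nr4a genes and Fosl2 are also in the immediate early list. The rank of this list is therefore a description. Nr4a1, an orphan nuclear receptor gene switched on early by receptor or cAMP signals, had 146 UMIs in 83 anti-IgG cells and 585 in 246 anti-PD1 cells (3.63, 3.02 to 4.38). Its relatives Nr4a3 (77 in 56 and 345 in 183 cells, 4.06, 3.16 to 5.26) and Nr4a2 (20 in 16 and 88 in 50 cells, 3.98, 2.43 to 6.84) moved alike. Fosl2, an AP-1 subunit gene, stood at 42.4 and 218 CPM (5.14, 4.005 to 6.67), and Crem, the cAMP response modulator, at 36.7 and 126 (3.44, 2.60 to 4.60). The clock gene Per1 (132 and 309, 2.33), the G protein regulator Rgs2 (65.9 and 162, 2.46), the kinase gene Sik1 (48.1 and 105, 2.18) and Ramp3, a partner chain of peptide hormone receptors (18.3 and 59.1, 3.22), were also higher, and so was Cxcr4 (35.5 and 54.4, 1.53). Cells with 2 or more UMIs of the Nr4a genes were 11.5% (8.71 to 14.8) of the anti-IgG naive CD4 cells and 44.8% (40.4 to 49.2) of those from anti-PD1 mice, and after thinning 2.21% (1.07 to 4.03) and 11.4% (8.80 to 14.5). Nr4a1 shifted outside T cells as well. A Nr4a1 UMI was seen in 12.5% of anti-IgG and 38.4% of anti-PD1 B cells after thinning. The shift of Nr4a1 was therefore not particular to CD4 cells. In thinned B cells Nr4a3 was seen in 0% and 1.99% and Fosl2 in 0% and 0.66%, with overlapping intervals. In the naive-gene CD8 cells the library ratios of Nr4a3 and Fosl2 were 5.51 and 5.28.

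The promoters of these genes are shown because they hold the letters of the CREB element in different numbers. The 250 bases before each start site in the RefSeq table (build GRCm38.p6) were searched on both strands for TGACG, the core of the CREB site, or its reverse complement CGTCA. It is present in 17.8% of all 32851 windows, in 34.5% of the 5383 genes measured here with an entry, in 42.3% of 300 genes called higher and in 26.4% of 401 called lower. Of the cAMP and CREB list, 7 of 13 measured genes with an entry hold it (Nr4a1, Nr4a2, Nr4a3, Pde4b, Per1, Ppp1r15a and Rgs2), and 5 of the 8 called. The 250 bases before the start sites of Nr4a1 (chr15:101266596-101266845, plus strand), Nr4a2 (chr2:57124004-57124253, minus strand) and Fos (chr12:85473640-85473889, plus strand) follow from 5′ to 3′, with the matches in capitals. Nr4a1 and Nr4a2 hold 4 each and Fos, which was lower in the anti-PD1 cells, holds 2, the nearest 40, 111 and 66 bases before the start site.
Nr4a1: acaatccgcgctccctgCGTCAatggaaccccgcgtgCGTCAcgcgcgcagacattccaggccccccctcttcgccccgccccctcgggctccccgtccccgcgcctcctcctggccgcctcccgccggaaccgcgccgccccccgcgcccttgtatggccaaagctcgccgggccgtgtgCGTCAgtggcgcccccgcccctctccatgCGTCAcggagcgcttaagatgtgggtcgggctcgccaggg
Nr4a2: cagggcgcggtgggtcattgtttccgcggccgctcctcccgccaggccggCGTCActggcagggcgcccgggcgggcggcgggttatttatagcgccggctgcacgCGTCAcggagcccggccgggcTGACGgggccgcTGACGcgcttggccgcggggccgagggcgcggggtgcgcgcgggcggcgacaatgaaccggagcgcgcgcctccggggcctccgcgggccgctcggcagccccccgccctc
Fos: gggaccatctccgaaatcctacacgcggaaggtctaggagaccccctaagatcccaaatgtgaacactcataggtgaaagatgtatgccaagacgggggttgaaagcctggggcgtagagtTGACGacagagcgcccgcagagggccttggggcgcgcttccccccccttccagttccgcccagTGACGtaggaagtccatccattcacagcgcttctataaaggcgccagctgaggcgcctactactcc
A match is a description of the letters and not a bound site, and the match in Fos shows that genes holding it went both ways.

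Immediate early genes were split between the directions: 13 of 32 were higher and 7 lower in the anti-PD1 library. The higher ones, besides the Nr4a genes and Fosl2, included the MAP kinase phosphatases Dusp5 (294 UMIs in 154 and 953 in 339 cells, 2.94, 2.57 to 3.36) and Dusp10 (614 in 241 and 1712 in 433, 2.52, 2.30 to 2.77), and the NF-kappaB regulator Nfkbid (43 and 133 UMIs, 2.80). The lower ones were led by the classical AP-1 subunits. Fos stood at 1008 and 387 CPM (0.384, 0.352 to 0.419), Jun at 1234 and 586 (0.475, 0.441 to 0.510) and Fosb at 109 and 46.2 (0.424, 0.326 to 0.548). Egr1, a read-out of receptor strength, stood at 127 and 75.2 (0.591), Zfp36, an mRNA decay factor, at 679 and 400 (0.590), and the early activation marker Cd69 at 455 and 275 (0.604). Outside these lists, Vps37b, an endosomal sorting gene, had 689 UMIs in 243 anti-IgG cells and 2780 in 462 anti-PD1 cells (3.65, 3.36 to 3.98).

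**Figure D5:**
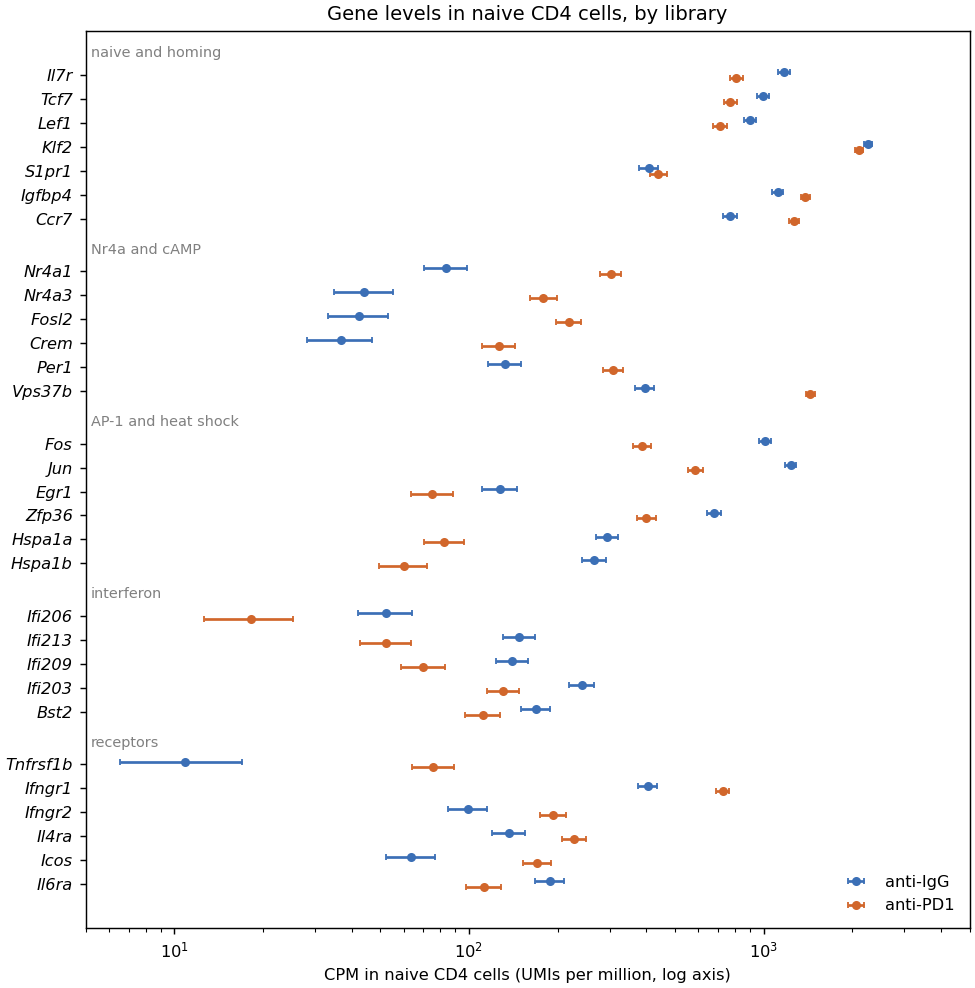
Levels in naive CD4 cells (CPM, horizontal log axis) of genes of 5 groups in the anti-IgG (blue) and anti-PD1 (orange) library, with exact 95% counting intervals. Nr4a, cAMP and receptor genes other than Il6ra lie further right in the anti-PD1 library, and Fos, Jun, Hspa1a, Hspa1b and the interferon genes drawn further left.

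The inducible heat shock genes Hspa1a and Hspa1b were lower in anti-PD1 naive CD4 cells. Hspa1a had 513 UMIs in 69 anti-IgG cells and 159 in 18 anti-PD1 cells (0.281, 0.233 to 0.336), and Hspa1b 465 in 83 and 116 in 20 cells (0.226, 0.183 to 0.277). In the other CD4 cells the ratios were 1.08 (0.967 to 1.202) and 1.01 (0.906 to 1.13), and the ratios of the 2 ratios were 0.260 (0.211 to 0.320) and 0.223 (0.178 to 0.281). Among naive CD4 cells, 17.5% (14.1 to 21.3) in the anti-IgG and 3.34% (1.96 to 5.29) in the anti-PD1 library held 2 or more of these UMIs, and 10.4% and 1.38% after thinning. The naive-gene CD8 cells were lower as well, at 0.518 (0.453 to 0.591) for Hspa1a and 0.379 (0.331 to 0.434) for Hspa1b, so the difference was not particular to naive CD4 cells. The other CD4 cells, in groups of which 1 cell can count in several, were mixed: Hspa1a stood at 151 and 54.9 CPM in those with Tnfsf11 or Ccr4, at 99.1 and 34.2 in those with Foxp3, at 112 and 135 in those with Izumo1r, at 110 and 111 in those with Cxcr3 or Tbx21, and at 130 and 480 in the 85 and 100 cells without any barred gene and with a naive sum under 2. In the other CD4 cells the shares were 16.9% and 8.19%, and 5.26% and 4.34% after thinning. The list as a whole was mixed, with 3 of 20 genes higher and 6 lower: Hsph1 was at 0.596 (0.483 to 0.733), while the endoplasmic reticulum chaperones Hspa5 (360 and 597 CPM, 1.66) and Dnajb9 (40.1 and 78.8, 1.97) were higher. Hspa1a and Fos are also known to respond to tissue digestion, which was done separately for each library, so treatment and preparation cannot be told apart here. With 1 library per treatment the same limit holds for every difference between the libraries, that of the Nr4a and cAMP genes included.

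Of 37 type I interferon response genes measured, 19 were lower in anti-PD1 cells and 0 higher, with a median log2 ratio of -0.60. Over all genes 7.69% were lower and 5.61% higher. The genes of the Ifi200 cluster, DNA sensors and their relatives, were among the lowest. Ifi214 had 80 UMIs in 62 anti-IgG cells and 26 in 25 anti-PD1 cells (0.294, 0.181 to 0.463), Ifi206 91 in 65 and 35 in 32 (0.348), Ifi213 258 in 148 and 101 in 82 (0.354, 0.279 to 0.448), Ifi209 245 in 169 and 135 in 112 (0.499) and Ifi203 421 in 235 and 252 in 181 (0.542). Schlafen genes, growth regulators of T cells, were lower as well: Slfn2 stood at 459 and 250 CPM (0.543), Slfn1 at 235 and 113 (0.479), Slfn5 at 59.6 and 28.0 (0.470) and Slfn8 at 44.1 and 17.6 (0.400). The other CD4 cells had 25 of 56 such genes lower and 0 higher. The shares of interferon-bearing cells had overlapping intervals: cells with 3 or more UMIs of Isg15, Ifit1, Ifit3, Ifit3b, Rsad2, Usp18, Rtp4 and Ifi27l2a made up 33.0% (28.6 to 37.5) and 26.1% (22.4 to 30.2), and 6.86% (4.71 to 9.59) and 4.34% (2.74 to 6.50) thinned. Isg15, the classical member, was seen in 8.63% of anti-IgG and 10.02% of anti-PD1 cells. Of 26 interferon GTPase and antigen presentation genes 5 were lower and 0 higher, among them Ifi47 (318 and 202 UMIs, 0.575), Gbp4 (142 and 83, 0.529) and Irgm1 (43 and 25, 0.526).

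The promoters of the Ifi200 genes are shown because they share a stretch of letters. GAAANNGAAA, the core of the interferon-stimulated response element, or its reverse complement TTTCNNTTTC, is present in 2.98% of all 32851 windows, in 3.14% of measured genes, in 3% of those called higher and in 4.74% of those called lower. It is present in 11 of 29 interferon genes with an entry and in 10 of the 18 called. The form GAAATCGAAA, which also matches GAAANNGAAA and was chosen after the values were seen, lies in 13 of 32851 windows (0.0396%) and in 8 measured genes, 6 of which were called lower (Ifi203, Ifi206, Ifi208, Ifi213, Ifi214 and Mndal). The 40 bases around it follow from 5′ to 3′ with the match in capitals, for Ifi213 (chr1:173599321-173599360, minus strand), Ifi214 (chr1:173536012-173536051, minus strand) and Ifi208 (chr1:173673592-173673631, plus strand), where it starts 73, 79 and 58 bases before the start site.
Ifi213: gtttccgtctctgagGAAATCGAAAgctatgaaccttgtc
Ifi214: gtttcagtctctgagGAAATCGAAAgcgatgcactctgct
Ifi208: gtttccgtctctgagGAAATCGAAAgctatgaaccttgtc
These genes are neighbouring near copies, so their promoters are not independent and their reads may be split between copies, which makes the level of each 1 uncertain.

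Cytokine receptors and their signalling genes were more often higher, 11 of 29 against 3 lower, with a median log2 ratio of 0.31. Over all genes 5.61% were higher and 7.69% lower, and the count lower in this list is near that share. Tnfrsf1b, the second TNF receptor, had 19 UMIs in 15 anti-IgG cells and 146 in 98 anti-PD1 cells (6.96, 4.30 to 11.9). Both chains of the interferon gamma receptor were higher, Ifngr1 with 705 UMIs in 289 and 1400 in 405 cells (1.80, 1.64 to 1.97) and Ifngr2 with 173 in 111 and 373 in 229 (1.95, 1.63 to 2.35). The IL-4 receptor Il4ra stood at 137 and 227 CPM (1.66), the IL-21 receptor Il21r at 172 and 301 (1.745), Stat3, which carries IL-6 and IL-21 signals, at 152 and 297 (1.95) and Stat5a at 48.1 and 88.7 (1.84). The feedback inhibitor Cish had 15 UMIs in 12 and 61 in 33 cells (3.68, 2.07 to 6.98), with 1.03 in the other CD4 cells. Il6ra, Il27ra and Il10ra were lower; Il10ra (40 and 25 UMIs) was not called among the cleared cells.

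TGF-beta response genes were higher in 5 of 14 cases and lower in 0, beside 5.61% higher and 7.69% lower over all genes. The higher ones were the repressor genes Skil (189 UMIs in 131 and 440 in 243 cells, 2.11, 1.77 to 2.51) and Tgif1 (113 and 247, 1.98), and the feedback gene Pmepa1 (67 and 155, 2.09). Tgfb1 itself (156 and 285, 1.65) and Klf10 (9 in 9 and 42 in 34 cells, 4.23, 2.03 to 9.87) completed them. The median log2 ratio of the list was 0.40, both in naive and in other CD4 cells.

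Memory and activation genes went both ways, 8 of 30 higher and 5 lower, and the cells with other-cell transcripts mattered here. Without them, where 5.44% of all genes were higher and 7.07% lower, 10 of 27 were higher and 1, Cd69, lower, and the median log2 ratio was 0.16 instead of -0.11. The clearing did not use NK and gamma-delta T cell markers, of which 7 and 8 of 10 were seen, with 396 and 315 UMIs (227 and 163 CPM) in 26 and 30 of all members and Ncr1 and Klra4 at 0 in both. Among them Trdv4, a gamma-delta receptor segment, was higher in cleared anti-PD1 cells, with 25 UMIs in 3 and 90 in 8 cells (3.06, 1.94 to 4.97), and the part of such cells in the count was not tested. S100a4, with 80 and 47 UMIs over all members (0.532), was at 0.917 in the cleared cells and Maf at 0.955 instead of 0.506. The helper costimulator Icos was higher, with 111 UMIs in 76 and 328 in 179 cells (2.68, 2.15 to 3.35), and so were Tnfrsf4 (21 and 58 UMIs, 2.50) and Tnfrsf18 (104 and 194, 1.69), TNF receptors of activated T cells. Bhlhe40, a factor of cytokine-producing helper cells, had 11 UMIs in 10 anti-IgG cells and 137 in 35 anti-PD1 cells (11.3, 6.11 to 23.1), 21.2% of the latter in 1 cell. With every cell brought to 1000 UMIs the expected ratio of Bhlhe40 was 5.56. Of 11 helper effector genes 4 were higher, among them Xcl1 with most of its UMIs in 1 cell, and 1 was lower. Bcl6, the follicular helper factor, had 25 UMIs in 19 and 68 in 59 cells (2.46, 1.54 to 4.07).

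Of 23 homing and egress genes 4 were higher and 4 lower, beside 5.61% and 7.69% over all genes. The lipid receptors Gpr132 (179 UMIs in 136 and 407 in 246 cells, 2.06, 1.72 to 2.47) and P2ry10 (210 in 139 and 508 in 270, 2.19, 1.86 to 2.58) were higher beside Ccr7 and Cxcr4, and Itga4, Cd69 and Cxcr6 were among the lower ones. Cxcr6 had 61 UMIs in 10 and 21 in 12 cells.

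The lists of metabolism, translation, survival, cell cycle and recent thymic emigrants had from 0 to 4 genes called in each direction. Over all genes 5.61% were higher and 7.69% lower. Of 42 oxidative phosphorylation genes 0 were higher and 2 lower (Ndufa3 and Atp5k, neither called in the cleared cells), with a median of -0.03. Of 18 glycolysis and hypoxia genes 2 were higher, Hif1a (163 and 273 CPM, 1.67) and Slc2a1, and 2 lower, Txnip and the stress gene Ddit4 (131 and 49.3, 0.377). Of 23 translation genes 1 was higher, the helicase gene Eif4a1 (276 and 502, 1.82), and 1 lower, Dkc1. Among 22 survival genes 4 were higher, including the pro-apoptotic Bcl2l11 (99.1 and 153, 1.54), and 1 lower, the pro-apoptotic Bbc3 (83.6 and 47.7, 0.571). Of 15 cell cycle genes 2 were higher and 1 lower. An Mki67 or Top2a UMI was seen in 3.10% (1.70 to 5.14) and 2.75% (1.51 to 4.57) of naive CD4 cells and in 22.9% and 20.9% of other CD4 cells. Of 6 genes of recent thymic emigrants 1, Myb, was higher (22 UMIs in 16 and 71 in 46 cells, 2.92, 1.79 to 4.95).

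Where the library ratio in naive CD4 cells is divided by that in other CD4 cells, 2.82% of 6566 genes lay past 1.5 upward and 3.47% downward with an interval excluding 1. Nr4a1 was at 3.63 in naive and 4.66 in other CD4 cells (ratio of ratios 0.778, 0.638 to 0.95), Nr4a2 at 3.98 and 6.05 (0.659, 0.388 to 1.12) and Nr4a3 at 4.06 and 5.29 (0.767, 0.583 to 1.01). Fosl2 was at 5.14 and 5.07 (1.01). The highest ratios of ratios, of Sparc (42.5), Xcl1 (23.3) and Igfbp7 (17.3), were of genes seen in few naive CD4 cells. The same held for low ones, of Ccl6 (0.0613) and Wfdc17 (0.0865). Other differences beyond the threshold included those of Hspa1a and Hspa1b given above and of Fos (0.384 against 0.702, ratio of ratios 0.547). Zfp36 (0.590 against 1.04, 0.566) and Egr1 (0.591 against 1.02, 0.577) also passed, all with a lower ratio in naive CD4 cells. Upward lay, among others, Bhlhe40 (11.3 against 2.89, 3.90, with the dependence on depth given above), Tnfrsf1b (6.96 against 2.87, 2.42) and Tigit (4.46 against 1.61, 2.76). So did Pdcd1 (2.51 against 1.17, 2.14), Ifngr1 (1.80 against 1.18, 1.53) and Ptpn22 (1.53 against 0.936, 1.63). The calls of Pdcd1 and Ptpn22 were lost under some alternatives, as given above. In the naive-gene CD8 cells the library ratios were 5.21 for Tnfrsf1b, 4.15 for Bhlhe40 and 2.75 for Tigit. Their rise was therefore not particular to naive CD4 cells. Pdcd1 was at 1.67 and Ptpn22 at 1.10 in those CD8 cells. These intervals again cover counting error only.

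Within the cleared naive CD4 cells, those with and without an Igfbp4 UMI (257 and 155 anti-IgG cells, 320 and 161 anti-PD1 cells) had Tcf7 at ratios of 0.914 and 1.13 and S1pr1 at 0.990 and 1.04. Since a cell without Igfbp4 had to hold 2 UMIs of Lef1 and Ccr7 to be selected, these are not compared. Over 5250 genes, 9 were higher and 26 lower with Igfbp4 in both libraries. Among the lower genes, chosen after their values were seen, were Il2rb, the IL-2 receptor beta chain (61.3 against 12.3 CPM without and with Igfbp4 in anti-IgG, 126 against 21.7 in anti-PD1 cells), Itgb1 (ratios 0.209 and 0.262), Ctla4 (0.404 and 0.297), Nkg7 (0.123 and 0.156) and Ahnak (0.451 and 0.282). Nkg7 was seen in only 10 anti-IgG and 17 anti-PD1 cells of all members. Higher with Igfbp4 were Pdlim4 (2.34 and 3.12), Treml2 (2.15 and 2.68) and Vim (1.56 and 1.89). Slc28a2b, the highest gene over other CD4 cells, was lower with Igfbp4 (0.241 and 0.374), so the rule joins cells of differing profile. Cells with an Igfbp4 UMI were deeper (median 3672 against 3102 and 3662.5 against 2901 UMIs), and the part of depth was not tested.

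Cells with 2 or more Hspa1a and Hspa1b UMIs, 67 anti-IgG and 14 anti-PD1 cells, had more of their fellow chaperones Hsph1 (4.74 and 8.77 times the other cleared cells) and Dnajb1 (4.26 and 5.92), and more Fos (2.56 and 4.03) and Jun (1.72 and 2.59). They had less Vps37b (0.376 and 0.341) and Dusp10 (0.647 and 0.486). Nr4a1 was at 1.22 and 2.26 and Hsp90aa1 at 1.54 and 2.25. Without them over all members, 329 genes were still higher and 438 lower in the anti-PD1 library, of which 287 and 350 were called before. Cells with 2 or more Nr4a UMIs, 43 and 205 cells, had more S100a6 (7.34 and 6.43), Ccl5 (5.18 and 7.11), Il2rb (4.10 and 8.91) and Egr1 (2.91 and 2.57), and less of the interferon gene Trim30a (0.308 and 0.435) and of Pik3ip1 (0.520 and 0.602). Over all members S100a6 was seen in only 26 and 32 cells and Ccl5 in 17 and 23, so their ratios rest on few cells. Tcf7 (0.860 and 0.867) differed less between cells with 2 or more and with fewer Nr4a UMIs.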

How the data were processed

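Single-cell RNA counts of 2 libraries, 1 from hearts of anti-IgG and 1 from hearts of anti-PD1 injected mice, were used. What the authors deposited are unnormalized UMI counts of genes in called cells; per the file headers they were written by Cell Ranger 7.1.0. Per the submitters' processing notes, mm10 was the build and the software was Seurat 4.4.0 with Cell Ranger 7.2.0. The annotation and counting settings are not given in the sources used here. Barcodes with at least 300 genes, at least 500 UMIs and no more than 10% of them mitochondrial passed, 4309 of 4380 and 5835 of 6026. The members and lists were chosen with earlier results of these data known.

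Within each group of cells UMIs were added up, divided by the group's total, and compared as ratios with exact 95% intervals conditional on the summed UMIs; the ratio of 2 ratios has a normal interval on the log scale. Genes needed 50 summed UMIs, and shares have exact Clopper-Pearson intervals. Totals per library were 22806806 and 29046341 UMIs. Intervals treat UMIs as drawn singly and are too narrow where they lie together in few cells. For shares, each cell was also thinned, by 1 random draw, to 1000 UMIs (0 anti-IgG and 2 anti-PD1 members were shallower). Scrublet in scanpy 1.11.5 called 0 and 4 cells, which is no working doublet call, so doublets were kept and the 149 and 272 highest scores were removed only as an alternative.

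Named genes were the 12 highest and 12 lowest ratios among called genes with at least 100 summed UMIs, the 6 highest and lowest ratios of ratios, the 2 highest and lowest called genes of each of 19 lists and a fixed set of genes; mitochondrial, ribosomal, haemoglobin, immunoglobulin, receptor segment, Xist and Y-linked genes were left out of the ranks, and those against other CD4 cells also left out the genes of the rule. Other genes in the text are further members of those lists or extremes of the cleared cells, chosen after their values were seen, as is each gene of the splits within members. Of 613 list symbols 610 were found in the files. Promoters came from RefSeq (GRCm38.p6) by symbol. Ratios and calls were tried on simulated counts drawn independently for each gene. Such counts hold no clustering of UMIs in cells and no spread between libraries, so they cannot test those limits of the intervals. Work used Python 3.11.15, numpy 2.4.6, scipy 1.17.1, pandas 2.3.3 and matplotlib 3.10.9. Some genes of these sets are not reported here.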

Additional observations from a re-analysis of the deposited data

Results flagged for a closer look

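A set of 11 genes differed between the libraries in opposite directions in naive CD4 cells and in the other CD4 cells, each with an interval that excludes 1; the difference itself was not tested, since there is 1 library a group. The MHC class II genes were lower in anti-PD1 naive CD4 cells and higher in anti-PD1 other CD4 cells: Cd74 at 0.554 against 1.82, H2-Aa at 0.467 against 1.99, H2-Ab1 at 0.501 against 1.95, H2-Eb1 at 0.366 against 1.67 and H2-DMa at 0.541 against 1.52. The macrophage genes Ccl6 (0.097 against 1.58), Wfdc17 (0.166 against 1.92) and the interferon-induced membrane gene Ifitm3 (0.568 against 1.53) went the same way, as did Gm10501 (0.327 against 1.71) and the quiescence factor Klf4 (0.604 against 2.21). Sparc, a matrix gene of stromal and endothelial cells, went the other way, at 17.7 against 0.415. In naive CD4 cells with fewer than 5 UMIs of other-cell markers, Cd74 kept 8 anti-IgG and 11 anti-PD1 UMIs of 1007 and 616, and Sparc 1 and 2 of 6 and 117. Cd74, H2-Aa, H2-Ab1, H2-Eb1 and Sparc are themselves among those markers, so their fall was set by the choice and nothing is read from it. Ccl6, which is not among the markers, kept 0 and 1 UMIs of 112 and 12. Klf4 kept 35 and 34 UMIs, a ratio of 0.824 (0.499 to 1.36), Gm10501 was at 0.181 (0.0814 to 0.362) and H2-DMa at 0.559 (0.331 to 0.931). In other CD4 cells without such cells, Gm10501 was at 1.14 and H2-DMa at 1.01, close to 1, down from 1.71 and 1.52.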

How the results depend on the processing

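The ratio of naive shares of CD4 cells lay between 1.10 and 1.29 in all 12 alternatives, and its interval reached below 1 in 2 of them. Counts of genes called in the anti-PD1 naive CD4 cells fell with the number tested: 131 higher and 138 lower at 200 or more UMIs, and 168 higher and 198 lower with cells thinned to 1000 UMIs, where 2537 and 2671 genes were tested. Against the CD4 cells with a naive sum under 2, 88 genes were higher and 294 lower, and against all other CD4 cells after thinning 132 and 440; here fewer cells or UMIs entered. Thinning also turned the median log2 ratio of interferon GTPase genes to 0.0092 and the ratio of Ndufa3 to 1.05. Both come from 1 random draw: over all draws the expected counts of Ndufa3 were 81.9 and 63.1, a ratio of 0.687, and those of Ptpn22, whose call the draw also ended, 49.8 and 83.9 (1.503); the cause of the other shift was not tested. Of 84 named genes under 13 alternatives, 19 lost a call at least once; among them Pdcd1 and Ctla4, with few UMIs, and Tnfsf8, near the threshold. No paired analysis was possible because each group is 1 library and no test was made. Depth limits rare transcripts most: at 1000 UMIs a cell, Tigit was seen in 2 and 9 cells.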

Other observations

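Transcripts of the translation machinery took a larger share in naive CD4 cells than in other CD4 cells. Ribosomal protein genes held 29.1% and 28.3% of UMIs in anti-IgG and anti-PD1 naive CD4 cells against 19.3% and 18.7% in the other CD4 cells. Ribosomal RNA held 5.40% and 7.41% against 5.24% and 6.66%, and mitochondrial genes 2.35% and 2.09% against 2.03% and 1.96%.

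The receptor beta chains were diverse. A Trbv segment was seen in 93.6% of anti-IgG and 89.8% of anti-PD1 naive CD4 cells, with 22 segments in each library. The most frequent were Trbv13-2, in 20.8% (17.0 to 24.99) and 19.7% (16.1 to 23.6) of cells with a segment, Trbv3 (14.2% and 12.7%) and Trbv31 (12.5% and 10.9%). In other CD4 cells Trbv13-2 was seen in 26.6% (23.8 to 29.5) and 21.7% (19.0 to 24.7). No clonotypes were derived.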
